A study of Arabidopsis thaliana with 24 samples.

Results

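The genes described here encode proteins of the 40S subunit, the small subunit of the cytosolic ribosome, in Arabidopsis thaliana. They were taken from the gene table by a list of locus identifiers, covering the families RPSa to RPS24 and RACK1A. The list holds 60 of the 32833 genes in the table, in 25 families, and all 60 passed the filter on low counts in every fit. Messenger RNA bound to polysomes, that is to several ribosomes at once, was sequenced from whole seedlings 9 days old, with 3 replicates in each of 8 groups. In the salt experiment the groups were exa1-1 in 200 mM NaCl, wild type (WT, Col-0) in 200 mM NaCl, exa1-1 in 1/2 MS medium and WT in 1/2 MS medium. In the heat experiment they were exa1-1 at 39 °C, WT at 39 °C, exa1-1 at 23 °C and WT at 23 °C. Every treatment lasted 60 min, and all seedlings were raised on 1/2 MS medium with 1% sucrose. EXA1 encodes a protein with a GYF domain, and exa1-1 is the only mutant line, so an effect of the EXA1 lesion and one of another difference between these lines cannot be told apart.

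The 40S subunit binds messenger RNA, scans it for a start codon and holds the decoding site where codons meet tRNAs. In plants each of its proteins is encoded by a small family of near-duplicate genes, called paralogs, and the family's messages are among the most abundant of growing cells. Production of ribosomal proteins is known to follow growth and nutrient state through the kinase TOR, which acts in part through S6 kinases that phosphorylate RPS6.

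The libraries held between 17861136 and 20629439 counts. In the 4 exa1-1 groups EXA1 (AT5G42950) had group means of 5.53 to 8.22 CPM, against 52.5 to 102.5 CPM in the 4 WT groups, where CPM are counts scaled to library size with TMM factors over the 24 libraries. Markers of green tissue and of root were both detected in every group, with no marker at 0, as the label of whole seedlings implies. The 100 most abundant genes held 34.1% and 33.3% of the counts at 39 °C in exa1-1 and WT, against 12.7% to 18.5% in the other 6 groups. The TMM factors were accordingly 0.570 and 0.589 at 39 °C and 1.10 to 1.37 elsewhere, so values across temperatures depend on the scaling and are given under both TMM and library totals. Replicate 3 of exa1-1 in MS stood apart, with 2.49% of its counts in the 60 genes against a group mean of 2.64%. Counts of called members that rest on it are also given without it. Medians, shares and values of single genes include it unless said otherwise. No total RNA was analysed here, so a change in transcript amount and a change in the number of ribosomes per transcript cannot be told apart. In these bulk samples, fewer cells of a type and less RNA per cell cannot be told apart either.

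Upstream sequences are shown for members from which several results below are drawn. They are the 2 RPS6 genes, which encode the target of S6 kinases, RACK1A (AT1G18080), the RPS7 gene AT5G16130 and the RPS16 gene AT2G09990. Each runs over the 250 bases before the annotated gene start, in RefSeq's TAIR10.1 assembly, and holds no transcribed base of the gene itself. Capitals mark 2 kinds of motif known from plant ribosomal protein promoters, searched on both strands: site II (TGGGCC or TGGGCT) and the telo box (AAACCCTA). Adjoining or overlapping matches share 1 run of capitals, and TGGGCCCA holds TGGGCC on both strands.
AT4G31700: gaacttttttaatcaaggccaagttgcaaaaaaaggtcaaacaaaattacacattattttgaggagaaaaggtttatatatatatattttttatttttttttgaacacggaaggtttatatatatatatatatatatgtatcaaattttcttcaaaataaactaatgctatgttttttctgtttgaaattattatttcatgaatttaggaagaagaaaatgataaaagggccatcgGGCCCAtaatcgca
AT5G10360: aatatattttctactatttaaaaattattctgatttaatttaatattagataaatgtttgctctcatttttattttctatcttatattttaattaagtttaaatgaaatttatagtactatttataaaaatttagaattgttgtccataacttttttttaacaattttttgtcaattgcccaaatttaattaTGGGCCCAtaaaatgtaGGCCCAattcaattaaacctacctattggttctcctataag
AT1G18080: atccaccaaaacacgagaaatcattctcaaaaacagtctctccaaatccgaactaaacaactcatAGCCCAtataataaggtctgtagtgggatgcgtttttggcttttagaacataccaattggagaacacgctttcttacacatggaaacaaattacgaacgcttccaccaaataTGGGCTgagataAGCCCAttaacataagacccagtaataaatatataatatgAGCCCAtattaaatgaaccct
AT5G16130: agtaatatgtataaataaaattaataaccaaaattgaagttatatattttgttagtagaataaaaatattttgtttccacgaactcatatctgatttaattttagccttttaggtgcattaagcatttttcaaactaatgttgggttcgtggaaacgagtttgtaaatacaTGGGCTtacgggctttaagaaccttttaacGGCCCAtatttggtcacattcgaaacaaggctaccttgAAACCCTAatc
AT2G09990: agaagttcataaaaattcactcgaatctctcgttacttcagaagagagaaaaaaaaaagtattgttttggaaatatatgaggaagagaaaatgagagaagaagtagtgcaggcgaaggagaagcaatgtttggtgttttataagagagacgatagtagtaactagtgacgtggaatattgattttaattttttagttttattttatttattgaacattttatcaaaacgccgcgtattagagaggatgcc
These windows lie at chr4:15347805-15348054, minus strand (AT4G31700, RPS6A), chr5:3260255-3260504, minus strand (AT5G10360, RPS6B), chr1:6221951-6222200, plus strand (RACK1A), chr5:5268171-5268420, plus strand (AT5G16130) and chr2:3781078-3781327, plus strand (AT2G09990).

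Site II was present in 39 of the 60 upstream windows (65.0%), against 19.2% of the 27437 windows of nuclear protein-coding genes, and 29 of the 60 held at least 2 copies, against 12.0%. RACK1A held 4 copies, RPS6B 3 and RPS6A 1, while the window of AT2G09990 had none. The telo box was present in 10 windows (16.7%), against 4.49% of all windows. The letters of a heat shock element, GAANNTTC, were in 4 windows (6.67%), against 9.55%. Of the 60 windows, 29 reach into a neighbouring gene. With salt in WT, the 39 members with a site II match had a median log2 fold change of -0.50 and the 21 without one -0.54, while the 10 with a telo box had -0.57 and the 50 without one -0.50. With heat in WT the medians were 0.67 with site II and 0.54 without it, and 0.69 with the telo box and 0.55 without it, under TMM scaling. With library totals they were -0.24 with site II and -0.36 without it, and -0.22 with the telo box and -0.35 without it. These differences were not tested. A match of letters is a description, not a binding site.

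Most of these genes lay among the most abundant messages in the polysome fraction. Levels between genes are compared in FPKM, which are counts scaled by gene length and by the library total. Averaged over the 8 group means, the 60 genes had a median of 279 FPKM, and 98.4% of the 21917 genes tested lay below that value. High among them were AT5G02960 (RPS23, a protein of the decoding site) at 841 FPKM and AT1G72370 (RPSaA, on the back of the subunit near the mRNA exit) at 683 FPKM. Low among them were AT3G09680 (RPS23) at 3.83 FPKM, AT3G04770 (RPSaB) at 21.3 FPKM and AT5G15520 (RPS19) at 30.8 FPKM. RPS23 thus had one paralog near the top and one at the bottom of the range. In all, 50 of the 60 genes exceeded 100 FPKM and 7 were under 50 FPKM. Coding sequences of listed paralogs were 74.5% to 98.3% identical over 47 pairs (median 85.2%). The 2 genes of RPS16 were 98.2% identical, and XW6 (AT1G58380, RPS2) was 97.5% identical to each of 3 unlisted copies. The counting rule for reads shared by near-identical genes is not stated, so single-gene values of RPS16 and XW6 are uncertain.

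**Figure D1:**
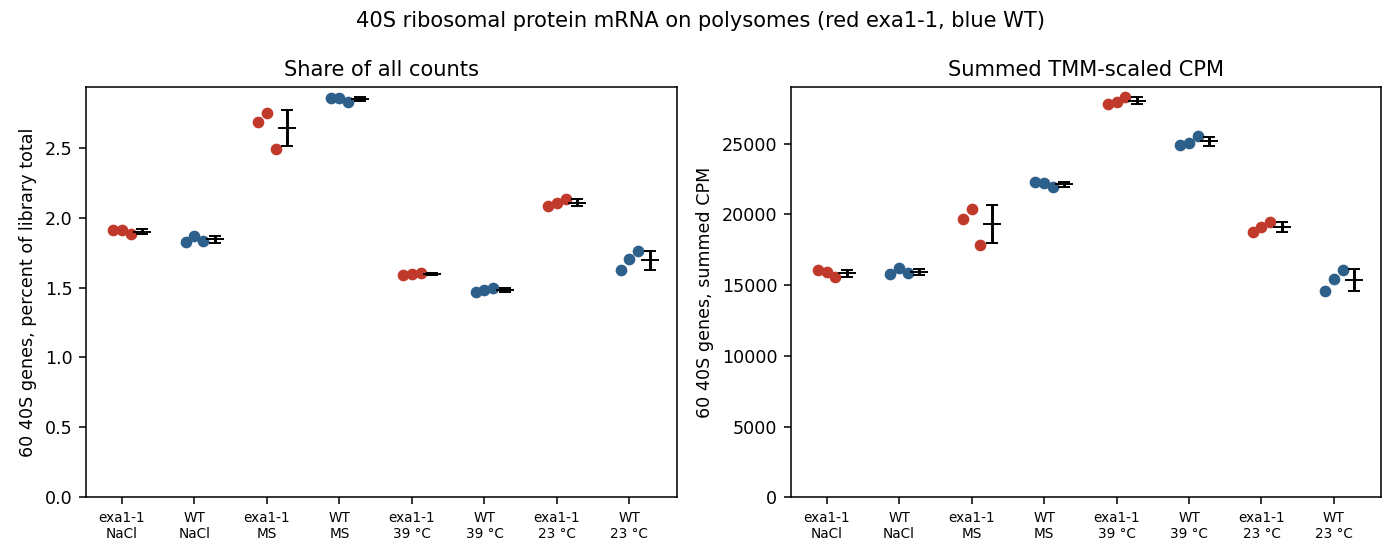
Summed polysome-bound mRNA of the 60 40S genes, one point per library, with mean and SD (n = 3) beside each group. On the left it is the percent of each library's total counts, from 1.48% (WT at 39 °C) to 2.85% (WT in MS) as group means, and on the right the sum of TMM-scaled CPM. The groups at 39 °C are the lowest in the left panel and the highest in the right one.

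After 60 min in NaCl the polysome-bound mRNA of the 40S proteins was lower in both genotypes. In exa1-1, 51 of the 60 genes fell at an adjusted p under 0.05 (edgeR's quasi-likelihood test, Benjamini-Hochberg over all genes), where 37.2% of all genes tested fell and 35.9% rose. Their median log2 fold change was -0.33, against -0.02 for all 21453 genes tested, and the range was -1.38 to 0.07. In WT all 60 fell, where 35.4% of all genes fell and 36.5% rose, with a median of -0.52, against 0.00 for all genes, and a range of -1.85 to -0.21. The number of members that rose was 0 in each genotype by edgeR, by DESeq2 and at an unadjusted p under 0.05. Replicates with and without salt did not overlap for 48 members in exa1-1 and 60 in WT, all lower in NaCl. The 60 genes together took 1.90% ± 0.0155 of all counts in exa1-1 in NaCl and 2.64% ± 0.131 in exa1-1 in MS, and 1.84% ± 0.0250 in WT in NaCl and 2.85% ± 0.0151 in WT in MS (SD, n = 3 each). Without replicate 3 of exa1-1 in MS, 56 members fell in exa1-1 with salt. Of the calls, 46 of 51 in exa1-1 and 59 of 60 in WT held without each library in turn.

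The scaffold protein RACK1A, which sits on the head of the subunit and docks signalling proteins, had 385, 392.04 and 386 CPM in exa1-1 in NaCl and 457, 455 and 422 CPM in exa1-1 in MS. In WT it had 379.9, 388 and 373 CPM in NaCl and 470.3, 476 and 461 CPM in MS. The groups with and without salt did not overlap in either genotype, and the log2 fold change was -0.21 (SE 0.04, adjusted p = 9e-06) in exa1-1 and -0.31 (SE 0.04, adjusted p = 6.56e-09) in WT, among the smaller falls of the list.

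RPS6A (AT4G31700) had 504, 512 and 524 CPM in exa1-1 in NaCl and 658, 711 and 574 CPM in exa1-1 in MS, against 419.7, 441 and 430.3 CPM in WT in NaCl and 704, 697 and 695 CPM in WT in MS. Its log2 fold change with salt was -0.35 (SE 0.05, adjusted p = 9.24e-08) in exa1-1 and -0.71 (SE 0.05, adjusted p = 6.72e-15) in WT. Its paralog RPS6B (AT5G10360) fell less, with a log2 fold change of -0.10 in exa1-1 (adjusted p = 0.0431), where its libraries overlapped, and -0.37 in WT (adjusted p = 2.32e-09), where they did not. The call of RPS6B in exa1-1 was lost without replicate 1 or 2 in NaCl and without replicate 1 or 2 in MS, with adjusted p = 0.10 to 0.305 and log2 fold changes of -0.089 to -0.057. RPS6A thus had the larger fall of the pair in both genotypes.

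Among proteins that line the mRNA exit, RPSaA (AT1G72370) fell, with a log2 fold change of -0.41 in exa1-1 and -0.24 in WT. Its rarer paralog RPSaB (AT3G04770) had 25.5, 24.6 and 25.5 CPM in exa1-1 in NaCl and 42.1, 44.0 and 44.7 CPM in exa1-1 in MS, and 21.6, 22.4 and 20.8 CPM in WT in NaCl and 51.0, 52.0 and 50.6 CPM in WT in MS. That is a log2 fold change of -0.81 (SE 0.06, adjusted p = 6.27e-16) in exa1-1 and -1.25 (SE 0.06, adjusted p = 5.77e-22) in WT. The RPS18 genes PFL (AT1G22780), named for the pointed first leaves of its mutant, and RPS18C (AT4G09800) encode a protein of the head and fell in both genotypes, with log2 fold changes of -0.29 and -0.25 in exa1-1 and -0.54 and -0.49 in WT.

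Large falls with salt belonged to rare paralogs. AT5G15520, an RPS19 gene, had 30.03, 28.9 and 29.5 CPM in exa1-1 in NaCl and 56.8, 58.2 and 54.5 CPM in exa1-1 in MS, and 25.6, 26.1 and 26.3 CPM in WT in NaCl and 62.0, 68.5 and 59.8 CPM in WT in MS. Every NaCl library lay below every MS library in both genotypes. Its log2 fold change was -0.95 (SE 0.06, adjusted p = 2.11e-18) in exa1-1 and -1.29 (SE 0.06, adjusted p = 1.31e-22) in WT. AT5G39850 (RPS9, at the mRNA entry) fell, with a log2 fold change of -1.04 in WT. In 24 families with several listed genes the least abundant paralog was compared with the most abundant one, ranked by mean FPKM over all libraries, those in NaCl included. The least abundant had the lower log2 fold change in 19 of the 24 in WT and in 20 of 24 in exa1-1. Across the 60 genes, level and log2 fold change in WT had a Pearson correlation of 0.81 and a Spearman correlation of 0.50, as a description, since the genes share their libraries.

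With salt, 9 members were not called in exa1-1, among them the RPS4 gene AT2G17360, the RPS7 gene AT3G02560, the RPS14 gene AT3G11510, the RPS15a genes AT1G07770 and AT3G46040 and the RPS20 gene AT5G62300. These 6 were chosen for naming after their values were seen. Their log2 fold changes ran from -0.22 to 0.07. With the listed genes of a family added up, 22 of 25 families in exa1-1 and 25 of 25 in WT were lower in every NaCl library than in every MS library, which held for 36.3% and 36.6% of single genes.

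Markers of other cells moved with salt as well. All 8 markers of dividing cells, such as PCNA1, and all 6 root markers fell in both genotypes, and all 4 markers of green tissue rose. The summed level of the markers of dividing cells was 47.7 to 52.8 CPM in exa1-1 in NaCl and 120.9 to 125.4 CPM in exa1-1 in MS, and 57.0 to 57.5 CPM in WT in NaCl and 121.0 to 123.8 CPM in WT in MS. The root markers summed to 913 to 941 CPM in exa1-1 in NaCl and 1744 to 1837 CPM in exa1-1 in MS, and to 788 to 796 CPM in WT in NaCl and 1953 to 1980 CPM in WT in MS. No marker was at 0 in any group. The part of these shifts in the fall of the 40S mRNAs was not tested.

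**Figure D2:**
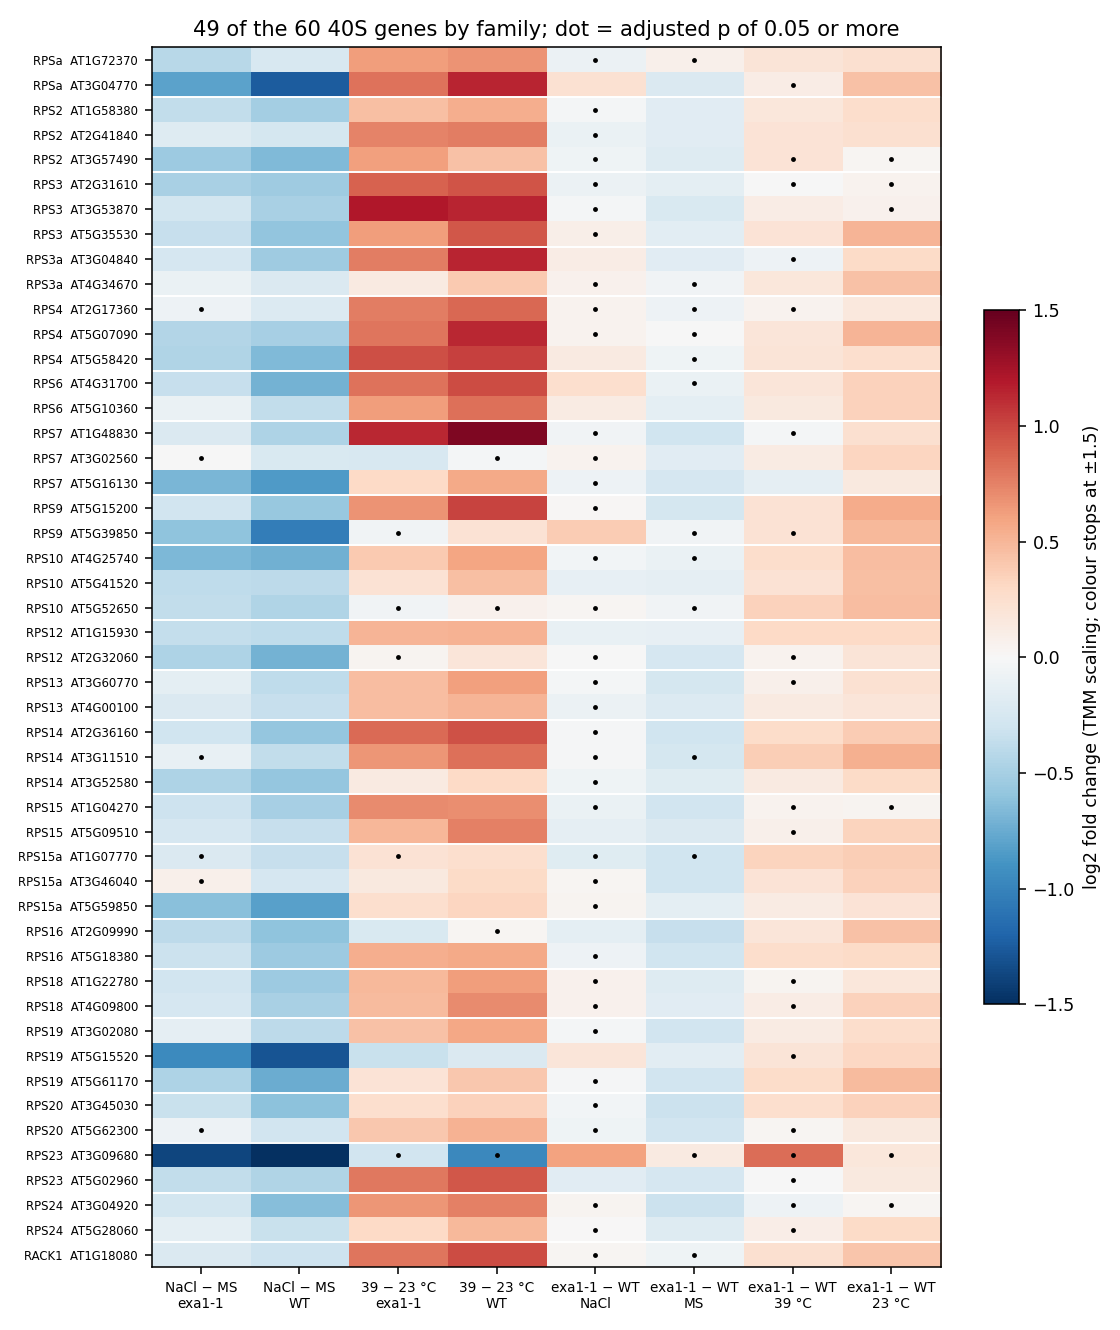
Log2 fold changes (TMM scaling) of 49 of the 60 40S genes, ordered by family, in the 4 stress comparisons and the 4 comparisons of genotype. Red is higher and blue lower in the group named first, and a dot marks an adjusted p of 0.05 or more. The column of salt in WT is blue for all 49 genes shown. The columns of 39 °C against 23 °C are red for 43 of them in exa1-1 and 46 in WT under this scaling, and with library totals 56 and 43 of the 60 genes fell.

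At 39 °C the 40S mRNAs rose relative to most other polysome-bound mRNAs, while their share of all counts fell. In exa1-1, 49 of the 60 genes rose and 5 fell with TMM scaling, against 2 that rose and 56 that fell with library totals alone. In WT 53 rose and 3 fell with TMM, against 7 and 43 with library totals. Of all 20923 genes tested, 38% rose and 41.4% fell in exa1-1 with TMM, and 38.2% rose and 42.3% fell in WT. With library totals 13.8% of all genes rose and 74.9% fell in exa1-1, and 14.4% rose and 74% fell in WT, so the members' 43 of 60 falls in WT are near the background share. The members' median log2 fold change was 0.47 in exa1-1 and 0.58 in WT with TMM, and -0.49 and -0.32 with library totals. The median of all genes was -0.10 in both genotypes with TMM, and -1.05 in exa1-1 and -1.002 in WT with library totals. Measured from that median the members stood at 0.57 in exa1-1 and 0.68 in WT, and 54 of 60 genes in exa1-1 and 56 of 60 in WT lay above it. A scaling moves all genes of a library alike, so these values are nearly the same under either scaling by construction. With TMM, replicates did not overlap for 49 members higher and 6 lower in exa1-1, where 38.5% and 42.3% of all genes were so, and for 51 higher and 4 lower in WT, where 38.6% and 42.7% were. The share of the 60 genes in all counts was 1.60% ± 0.00680 in exa1-1 at 39 °C and 2.11% ± 0.0255 in exa1-1 at 23 °C, and 1.48% ± 0.0163 in WT at 39 °C and 1.70% ± 0.0686 in WT at 23 °C (SD, n = 3 each). Of the TMM calls, 51 of 54 in exa1-1 and 52 of 56 in WT held without each library in turn.

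**Figure D3:**
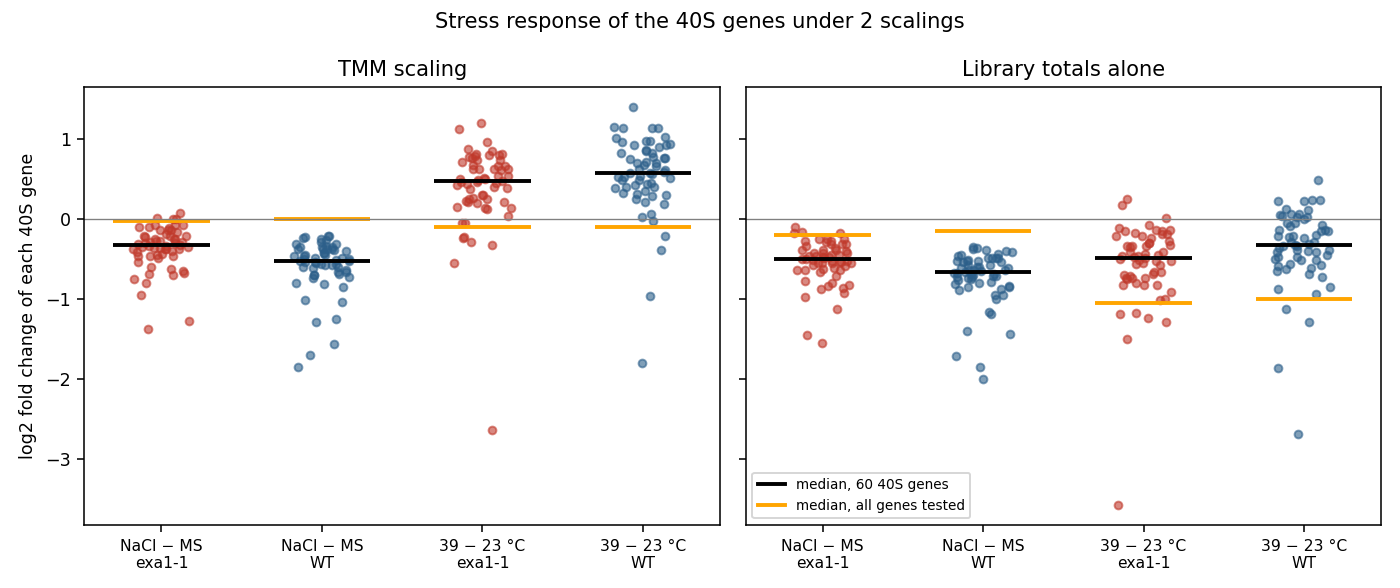
Log2 fold change of each 40S gene with salt and with heat in both genotypes, with TMM scaling (left) and library totals alone (right). Black bars are medians of the 60 genes and orange bars medians of all genes tested. With heat the black bars lie above 0 on the left (0.47 and 0.58) and below 0 on the right (-0.49 and -0.32), and above the orange bars in both panels. The distance between black and orange bars is nearly the same in both panels by construction, since a scaling moves all genes of a library alike.

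AT1G48830, an RPS7 gene, had the largest rise in WT. It had 253, 245 and 245 CPM in exa1-1 at 39 °C and 113, 113 and 115 CPM in exa1-1 at 23 °C, and 251, 239.9 and 268 CPM in WT at 39 °C and 87.6, 94.7 and 105 CPM in WT at 23 °C. Its log2 fold change with TMM was 1.13 (SE 0.05, adjusted p = 2.45e-27) in exa1-1 and 1.40 (SE 0.05, adjusted p = 2.47e-31) in WT, and it stayed positive with library totals, at 0.17 and 0.49. AT3G53870, 1 of 3 genes for RPS3 at the mRNA entry, likewise rose under both scalings, by 1.21 in exa1-1 and 1.15 in WT with TMM and by 0.25 and 0.24 with library totals. These 2 are the only members that rose in exa1-1 with library totals. The RPS3a gene AT3G04840 and the RPS4 gene AT5G07090 rose in WT by 1.14 and 1.13 with TMM and by 0.23 and 0.23 with library totals. In exa1-1 AT5G58420 (RPS4), AT2G31610 (RPS3) and AT2G36160 (RPS14) rose by 0.97, 0.88 and 0.85 with TMM, against 0.01, -0.08 and -0.11 with library totals.

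RACK1A had 907, 891 and 913 CPM in exa1-1 at 39 °C and 501, 520.3 and 535 CPM in exa1-1 at 23 °C, and 752, 771 and 775 CPM in WT at 39 °C and 384, 393 and 391.8 CPM in WT at 23 °C. The libraries of the 2 temperatures did not overlap on this scale, and the log2 fold change was 0.80 in exa1-1 and 0.97 in WT. With library totals the values were -0.15 and 0.07, the first reversed in sign. RPS6A and RPS6B rose by 0.82 and 0.62 in exa1-1 and by 0.97 and 0.82 in WT with TMM. With library totals RPS6A stood at -0.14 in exa1-1 and 0.07 in WT, and RPS6B at -0.33 and -0.08. RPSaA, RPSaB, PFL and RPS18C rose in both genotypes with TMM, by 0.48 to 0.81 in exa1-1 and by 0.62 to 1.14 in WT, and each but RPSaB in WT had a negative value with library totals.

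A few members fell at 39 °C under both scalings. AT5G15520 (RPS19) had 23.6, 25.2 and 25.4 CPM in exa1-1 at 39 °C and 31.4, 32.0 and 30.1 CPM in exa1-1 at 23 °C, and 21.9, 21.4 and 21.4 CPM in WT at 39 °C and 25.6, 23.9 and 25.5 CPM in WT at 23 °C. Every library at 39 °C lay below every library at 23 °C of its genotype. Its log2 fold change was -0.33 (SE 0.08, adjusted p = 0.000439) in exa1-1 and -0.21 (SE 0.09, adjusted p = 0.0235) in WT with TMM, and -1.29 and -1.12 with library totals. Its call in WT with TMM was lost without replicate 1 or 3 at 23 °C and without replicate 2 or 3 at 39 °C, with adjusted p = 0.0574 to 0.0628 and log2 fold changes of -0.21 to -0.20. In exa1-1 the RPS7 gene AT3G02560 and the RPS16 gene AT2G09990 also fell, with log2 fold changes of -0.24 and -0.22 with TMM and -1.19 and -1.18 with library totals. Not called with TMM were 6 members in exa1-1, among them AT5G39850 (RPS9), AT5G52650 (RPS10), AT2G32060 (RPS12), AT1G07770 (RPS15a) and AT3G09680 (RPS23). In WT they were AT3G02560, AT5G52650, AT2G09990 and AT3G09680. These were chosen for naming after their values were seen.

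The markers of other cells moved with heat too. With TMM all 4 markers of green tissue rose in both genotypes, and with library totals 2 rose and 2 fell in exa1-1 and 2 rose and 1 fell in WT. Root markers fell under both scalings, 5 of 6 in exa1-1 and 6 of 6 in WT with TMM and 6 of 6 in each with library totals. They summed to 515 to 529 CPM in exa1-1 at 39 °C and 1911 to 1965 CPM in exa1-1 at 23 °C, and to 494 to 518 CPM in WT at 39 °C and 1834 to 1898 CPM in WT at 23 °C. Of the 8 markers of dividing cells 2 rose and 2 fell in exa1-1 and 4 rose in WT with TMM, while 1 rose and 7 fell in exa1-1 and 1 rose and 6 fell in WT with library totals. Their part in the change of the 40S mRNAs was not tested.

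Between genotypes, the 40S mRNAs were higher in exa1-1 than in WT at 23 °C and lower in exa1-1 in MS. At 23 °C 51 of the 60 were higher and 0 lower, where 17.1% of all genes were higher and 17.8% lower, with a median log2 fold change of 0.31. The count of 0 lower held by edgeR, by DESeq2 and at an unadjusted p under 0.05. In MS 46 of the 60 were lower and 0 higher, where 19.5% of all genes were lower and 16.5% higher, with a median of -0.21. In MS 0 members were higher by DESeq2 and at an unadjusted p under 0.05, while with library totals 1 was higher and 33 were lower, where 26.6% of all genes were higher and 13.8% lower. Without replicate 3 of exa1-1 in MS, 45 members were lower and 1 higher.

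At 39 °C 32 members were higher and 1 lower in exa1-1, where 15.2% of all genes were higher and 13.7% lower, with a median of 0.15. With library totals 24 were higher and 4 lower at 39 °C, with a median of 0.11. By that scaling 11.9% of all genes were higher and 17% lower. In NaCl 9 were higher and 5 lower, where 15.3% of all genes were higher and 17.1% lower, and the members' median was -0.00. With library totals 19 were higher and 1 lower in NaCl, where 21.5% of all genes were higher and 13.4% lower. The 9 higher in NaCl are near the background share, and 5 of the 14 calls there held without each library in turn. In the other conditions 24 of 33 calls held at 39 °C, 49 of 51 at 23 °C and 41 of 46 in MS. Replicates did not overlap for 44 members higher and 4 lower at 39 °C, where 22.3% and 20.3% of all genes were so, and for 52 higher and 0 lower at 23 °C, where 21.3% and 21.6% were. In NaCl they did not overlap for 16 higher and 14 lower, where 22% and 23.2% of all genes were so, and in MS for 1 higher and 51 lower, where 19.9% and 24.7% were.

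AT5G15200 (RPS9, at the mRNA entry) had the largest difference at 23 °C, with 785, 802 and 846 CPM in exa1-1 and 492, 562 and 596 CPM in WT. All exa1-1 libraries lay above all WT libraries, and the log2 fold change was 0.56 (SE 0.05, adjusted p = 3.05e-11). AT3G11510 (RPS14, near the mRNA exit) had 379, 385 and 430.1 CPM in exa1-1 and 255, 284 and 283 CPM in WT, a log2 fold change of 0.54 (SE 0.04, adjusted p = 1.68e-14). AT5G35530 (RPS3) and AT5G07090 (RPS4) were higher by 0.51 and 0.51. RACK1A was higher by 0.41, and RPS6A and RPS6B by 0.34 each.

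In MS the differences of named genes were smaller. AT2G09990 (RPS16, on the head near the tRNAs) had 190.2, 202 and 163 CPM in exa1-1 and 242, 234 and 233 CPM in WT, a log2 fold change of -0.34 (SE 0.05, adjusted p = 1.52e-06). AT3G04920 (RPS24) and AT3G45030 (RPS20) were lower, with log2 fold changes of -0.32 and -0.32. RACK1A, RPS6A and RPSaA were not called, with -0.07 (adjusted p = 0.194), -0.10 (adjusted p = 0.107) and 0.08 (adjusted p = 0.118). In NaCl AT5G39850 (RPS9) had 48.1, 51.9 and 44.9 CPM in exa1-1 and 37.4, 36.3 and 37.8 CPM in WT, a log2 fold change of 0.38, and RPS6A was higher by 0.25. At 39 °C AT3G11510 (RPS14) and AT5G52650 (RPS10) were higher by 0.37 and 0.35, and AT5G16130 (RPS7) was lower, at -0.13, a call lost without replicate 1 of exa1-1 (adjusted p = 0.0862) and without replicate 3 of WT (adjusted p = 0.0803), with a log2 fold change of -0.11 and -0.12.

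**Figure D4:**
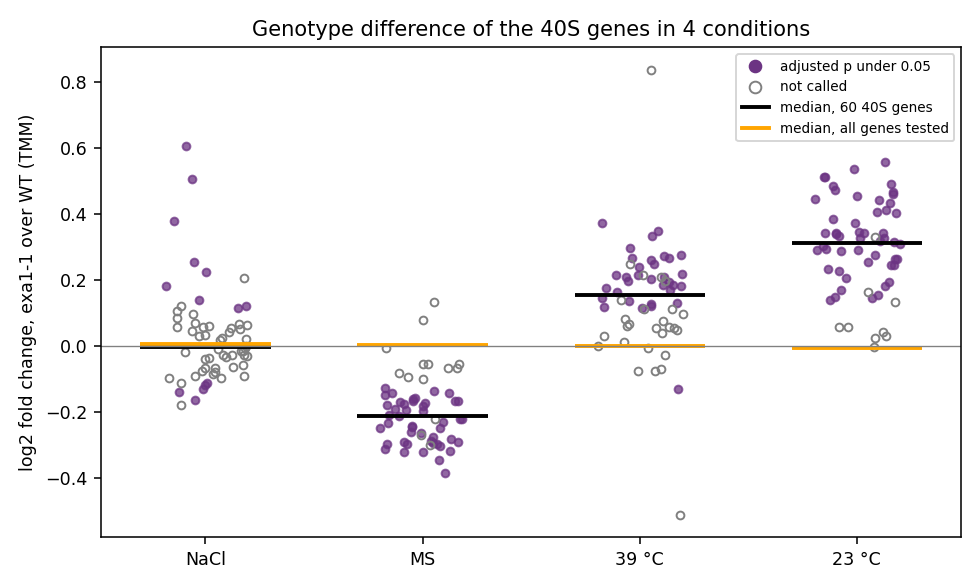
Log2 fold change of exa1-1 over WT for each of the 60 40S genes in 4 conditions (TMM scaling). Filled points passed an adjusted p of 0.05, black bars are the members' medians and orange bars the medians of all genes tested. Medians lie near 0 in NaCl (-0.00), below 0 in MS (-0.21) and above 0 at 39 °C (0.15) and 23 °C (0.31).

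Tested directly, the genotype difference at 23 °C exceeded that in MS for 58 of the 60 genes, where 16.3% of all genes did so, and was below it for 0, where 12.3% did. The median difference was 0.51 on the log2 scale. DESeq2 and an unadjusted p under 0.05 also gave 0 below. Without replicate 3 of exa1-1 in MS, 57 were above and 0 below. This comparison was added after the data were seen. The difference of differences was 0.83 (SE 0.09, adjusted p = 3.8e-07) for AT5G15200 (RPS9), 0.49 (SE 0.05, adjusted p = 6.72e-11) for RACK1A and 0.18 for RPSaA. Medium, temperature and experiment cannot be told apart in it.

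The salt response differed between genotypes for 33 genes. The change in exa1-1 was above that in WT, which here means a smaller fall, for 32 members, where 10.6% of all genes tested were above, and below it for 1, where 9.36% were. The median difference was 0.23. RPSaB differed by 0.44 (SE 0.08, adjusted p = 9.21e-05) and AT5G39850 (RPS9) by 0.43. RPS6A and RPS6B differed by 0.35 and 0.27. RPSaA was the exception, with the larger fall in exa1-1 and a difference of -0.17 (SE 0.06, adjusted p = 0.0292), a call that was lost in 6 of 12 fits without 1 library. Without replicate 3 of exa1-1 in MS the counts were 32 above and 1 below, and 24 of the 33 calls held without each library in turn.

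The heat response differed between genotypes for 24 genes, all with the lower change in exa1-1, where 8.11% of all genes had a lower and 8.78% a higher change. The members' median difference was -0.15, and 0 members had a higher change by edgeR, by DESeq2 or at an unadjusted p under 0.05. With library totals the count was 35 lower and 0 higher, where 10.8% of all genes were lower and 6.63% higher. Without replicate 3 of WT at 23 °C it was 39, and 16 of the 24 calls held without each library in turn. AT3G04840 (RPS3a) differed by -0.37 (SE 0.05, adjusted p = 6.23e-07). It had 576, 551 and 571 CPM in exa1-1 at 39 °C and 331, 331 and 336 CPM in exa1-1 at 23 °C, and 579, 613 and 601 CPM in WT at 39 °C and 278, 265 and 271 CPM in WT at 23 °C. AT5G15200 (RPS9), AT5G07090 (RPS4) and AT5G35530 (RPS3) differed by -0.34, -0.33 and -0.31.

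The controls of the 2 experiments differed as well. At 23 °C against MS 19 of the 60 genes were higher and 32 lower in exa1-1, where 33.1% of all genes were higher and 33.6% lower, with a median of -0.22. In WT 1 was higher and 55 lower, where 33.3% were higher and 32.8% lower, with a median of -0.67. With library totals 5 members were higher and 47 lower in exa1-1, where 20.3% of all genes were higher and 51.8% lower, and 0 higher and 59 lower in WT, where 23.8% were higher and 45.7% lower. This scaling moved the median of all genes to -0.33 in exa1-1 and -0.23 in WT. Without replicate 3 of exa1-1 in MS, 16 were higher and 36 lower in exa1-1. Replicates did not overlap for 16 higher and 30 lower in exa1-1, where 33.6% and 34.2% of all genes were so, and for 1 higher and 56 lower in WT, where 33.9% and 34.2% were. AT2G41840 (RPS2, at the mRNA entry) was the member that was higher in WT, by 0.15 with TMM, which reversed to -0.07 with library totals. RPS6A was lower, at -0.59 in exa1-1 and -1.04 in WT, and RPS6B was higher by 0.35 in exa1-1 (with library totals 0.04) and lower, at -0.15 in WT. Markers of green tissue stood higher at 23 °C, with sums of 26013 to 27147 CPM in exa1-1 at 23 °C and 7052 to 7624 CPM in exa1-1 in MS, and of 29630 to 30297 CPM in WT at 23 °C and 10459 to 10981 CPM in WT in MS. All 4 of them rose in both genotypes. Of the 8 markers of dividing cells 1 rose and 4 fell in exa1-1 and 4 fell in WT, and of the 6 root markers 1 rose and 4 fell in exa1-1 and 2 fell in WT. The part of these markers was not tested. Temperature, medium and experiment cannot be told apart here.

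Markers of green tissue also differed by genotype. All 4 were lower in exa1-1 in MS and in NaCl, 3 were lower at 39 °C, and at 23 °C 3 were lower and 1 higher. Root markers were higher for 5 and lower for 1 in MS, and higher for 2 in NaCl, 2 at 23 °C and 4 at 39 °C. Markers of dividing cells were higher for 2 and lower for 1 in MS, lower for 2 in NaCl, higher for 2 at 23 °C and lower for 1 at 39 °C. In the difference of salt responses 1 of 4 markers of green tissue (RBCS1A, at -0.54) and 2 of 8 of dividing cells were below 0, and of the 6 root markers 1 was above and 1 below. In the difference of heat responses 1 marker of green tissue was above 0 (RCA, at 0.32) and 2 below (CAB1 at -0.14 and PSBP-1 at -0.23), 3 of dividing cells were below and 1 of root was above. Their part in the genotype differences of the 40S mRNAs, and in the differences of response, was not tested.

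Shares of paralogs within a family do not depend on the scaling of libraries, since all genes of a library are scaled alike. They are given as percent of the summed FPKM of the listed genes of a family, with SD and n = 3, and without a test. A paralog's share moved without overlap of replicates in 20 of 24 families with salt and in 21 of 24 with heat, in each genotype. For exa1-1 against WT it did so in 11 families in NaCl, 13 in MS, 18 at 39 °C and 15 at 23 °C. A family counts here if any of its listed genes did so, and no share over all genes is available beside these counts. Between genotypes the largest difference of mean share, overlapping or not, was 3.17 points in NaCl, 2.65 in MS, 4.33 at 39 °C and 6.90 at 23 °C. With heat it was 14.2 points in each genotype.

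The largest shift with heat was in RPS7. AT1G48830 held 33.3% ± 0.860 of the family in exa1-1 at 39 °C and 19.1% ± 0.170 in exa1-1 at 23 °C, and 33.2% ± 1.04 in WT at 39 °C and 19.0% ± 0.760 in WT at 23 °C. AT3G02560 moved the other way, holding 27.9% ± 0.606 in exa1-1 at 39 °C and 41.2% ± 0.965 in exa1-1 at 23 °C, and 25.1% ± 0.603 in WT at 39 °C and 38.7% ± 0.651 in WT at 23 °C. The third gene, AT5G16130, kept a share that overlapped between temperatures. In RPS3a, AT3G04840 held 43.4% ± 0.402 in exa1-1 at 39 °C and 33.0% ± 0.681 in exa1-1 at 23 °C, and 47.7% ± 0.676 in WT at 39 °C and 35.4% ± 0.676 in WT at 23 °C. In RPS16, AT2G09990 held 15.6% ± 0.242 in exa1-1 at 39 °C and 23.9% ± 0.0310 in exa1-1 at 23 °C. In RPS10, AT5G52650 held 30.2% ± 0.371 in WT at 39 °C and 37.0% ± 1.42 in WT at 23 °C.

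With salt the largest shift, over all families, was smaller. AT5G59850 (RPS15a) held 44.7% ± 0.670 of its family in exa1-1 in NaCl and 53.8% ± 0.917 in exa1-1 in MS, and 42.5% ± 1.15 in WT in NaCl and 51.2% ± 2.70 in WT in MS. AT5G16130 (RPS7) held 33.9% ± 0.728 in exa1-1 in NaCl and 43.4% ± 0.908 in exa1-1 in MS, and 35.2% ± 0.446 in WT in NaCl and 43.6% ± 0.540 in WT in MS. AT3G02080 (RPS19) gained share, with 51.8% ± 0.907 in exa1-1 in NaCl and 45.4% ± 0.496 in exa1-1 in MS, and 52.4% ± 0.664 in WT in NaCl and 45.6% ± 0.391 in WT in MS. RPS15a, RPS7 and RPS19 shifted in the same direction in both genotypes.

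**Figure D5:**
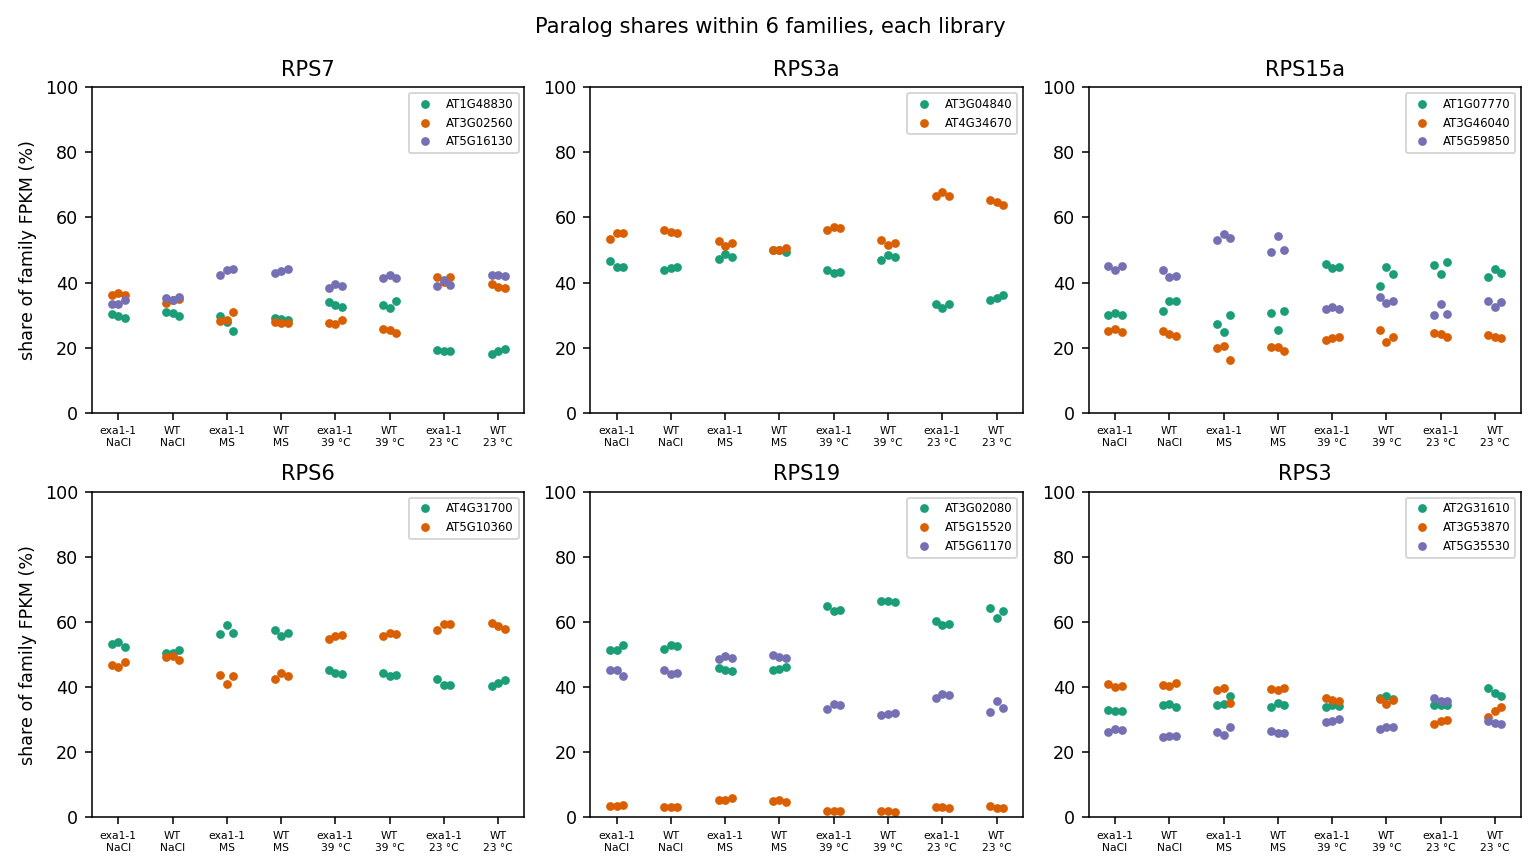
Share of each listed paralog in the summed FPKM of its family, for 6 families, with one point per library. In RPS7 the gene AT1G48830 is near 33% at 39 °C in both genotypes and near 19% at 23 °C. In RPS6 at 23 °C the gene AT4G31700 holds 41.3% in both genotypes, against 57.4% in exa1-1 and 56.6% in WT in MS.

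Between the genotypes at 23 °C, AT5G35530 held 36.1% ± 0.608 of RPS3 in exa1-1 and 29.2% ± 0.392 in WT. In MS the largest difference without overlap of replicates was 2.04 points, in RPS12. These families were chosen after their values were seen. The controls of the 2 experiments differed most. RPS6A held 41.3% ± 1.06 of RPS6 in exa1-1 at 23 °C and 57.4% ± 1.57 in exa1-1 in MS, and 41.3% ± 0.867 in WT at 23 °C and 56.6% ± 0.899 in WT in MS. AT5G59850 held 31.3% ± 1.75 of RPS15a in exa1-1 at 23 °C and 53.8% ± 0.917 in exa1-1 in MS. The more abundant RPS6 gene was thus RPS6B at 23 °C and RPS6A in MS.

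The list of other 40S genes held 39. Of these, 31 were tested with salt, and 1 rose and 23 fell in exa1-1 while 27 fell in WT, with medians of -0.27 and -0.52. Of all genes tested, 35.9% rose and 37.2% fell with salt in exa1-1, and 36.5% rose and 35.4% fell in WT. RACK1B (AT1G48630) and RACK1C (AT3G18130), the paralogs of RACK1A, fell, with log2 fold changes of -0.85 and -1.02 in exa1-1 and -1.09 and -1.23 in WT, against -0.21 and -0.31 for RACK1A. With heat 19 of 30 rose and 2 fell in exa1-1 and 24 rose and 2 fell in WT with TMM. Of all genes, 38% rose and 41.4% fell in exa1-1 with TMM, and 38.2% rose and 42.3% fell in WT. With library totals 3 of the 30 rose and 24 fell in exa1-1, and 3 rose and 25 fell in WT. By that scaling 13.8% of all genes rose and 74.9% fell in exa1-1, and 14.4% rose and 74% fell in WT. Between genotypes 23 of 31 were lower and 1 higher in MS, and 17 of 30 higher and 1 lower at 23 °C. In NaCl 3 were higher and 3 lower, and at 39 °C 12 were higher. Of all genes, 16.5% were higher and 19.5% lower in MS, and 17.1% and 17.8% at 23 °C. In NaCl 15.3% of all genes were higher and 17.1% lower, and at 39 °C 15.2% were higher.

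Of 22 genes for partners of the subunit, namely S6 kinases, TOR and its subunits, LARP1 proteins, initiation factor eIF3 and the transcription factor TCP20, 7 rose and 5 fell with salt in exa1-1 and 6 rose and 9 fell in WT. Of all genes tested, 35.9% rose and 37.2% fell with salt in exa1-1, and 36.5% rose and 35.4% fell in WT. The partners' counts lay near or below these shares. S6K2 (AT3G08720) rose by 1.75 (SE 0.06) in exa1-1 and 1.63 (SE 0.06) in WT, and the S6 kinase gene AT3G08730 by 0.70 and 0.45. With heat 15 rose in each genotype with TMM, and 3 fell in exa1-1 and 4 in WT, against 4 that rose and 16 that fell in exa1-1 and 5 and 15 in WT with library totals. With TMM 38% of all genes rose and 41.4% fell in exa1-1, and 38.2% rose and 42.3% fell in WT. With library totals 13.8% of all genes rose and 74.9% fell in exa1-1, and 14.4% rose and 74% fell in WT. The partners' counts with library totals are near these shares. AT3G08730 rose under both scalings, by 1.69 in exa1-1 and 1.78 in WT with TMM and by 0.73 and 0.87 with library totals. LARP1a (AT5G21160) has a counterpart in mammals that binds mRNAs of ribosomal proteins, and is named after its values were seen. It fell under both, with log2 fold changes of -0.63 in exa1-1 and -1.09 in WT with TMM and -1.58 and -1.999 with library totals, while LARP1b (AT5G66100) rose under both. Between genotypes 4 partners were higher and 2 lower in MS, 5 and 3 at 23 °C, 5 and 2 in NaCl, and 8 and 2 at 39 °C. Of all genes, 16.5% were higher and 19.5% lower in MS, and 17.1% and 17.8% at 23 °C. In NaCl 15.3% of all genes were higher and 17.1% lower, and at 39 °C 15.2% and 13.7%.

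Of 9 genes for assembly factors of the subunit, which modify and process its RNA in the nucleolus, 8 fell with salt in exa1-1 and 9 in WT. Of all genes tested, 37.2% fell with salt in exa1-1 and 35.4% in WT. The fibrillarin gene FIB2 (AT4G25630) fell most of the 9, at -1.32 in exa1-1 and -1.75 in WT. With heat 7 rose and 1 fell in each genotype with TMM, against 1 that rose and 8 that fell in exa1-1 and 0 and 8 in WT with library totals. Of all genes, 38% rose in exa1-1 and 38.2% in WT with TMM, while 74.9% and 74% fell with library totals. Between genotypes 1 assembly factor was higher and 2 lower in MS, near the 16.5% and 19.5% of all genes. At 23 °C 5 were higher, 4 in NaCl and 5 at 39 °C, where 17.1%, 15.3% and 15.2% of all genes were.

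Genes whose 8 group means were most like the members' mean profile were sought as well. Left out were genes whose product name matched terms for ribosomal proteins, those of organelles included, and genes with no annotated protein product. Of the 14808 genes left with a mean of at least 5 CPM, the most alike was AT3G26780, annotated as a phosphoglycerate mutase family protein. Its Pearson correlation was 0.98. DHDPS1 (AT3G60880, lysine synthesis) followed with 0.98 and PRIN2 (AT1G10522) with 0.97. CRT1b (AT1G09210, a calreticulin of the endoplasmic reticulum) had 0.97 and AL1 (AT5G05610, an alfin-like protein) had 0.96. The members themselves had a median correlation of 0.81 with their mean profile. These are descriptions over 8 group means that share libraries and scaling.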

How the data were processed

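Strand-specific, paired-end libraries were made from polysome-bound RNA of 24 samples, which the labels call independent biological replicates. The authors deposited counts per gene and FPKM (fragments scaled by gene length and library size), with HISAT2 2.0.4, HTSeq 0.6.1p1 and the TAIR10 build named in the submitters' processing notes. How reads shared by genes were counted is not given in the sources used here. The deposited FPKM equalled deposited counts divided by gene length and the library's count total, to a relative difference of at most 1.2075e-09 over 16405 genes, so they carry no further scaling between libraries.

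Deposited counts were tested with edgeR 4.0.16 in R 4.3.3 (filterByExpr with a minimum count of 10 and total of 15, TMM factors, robust quasi-likelihood fit, Benjamini-Hochberg adjustment over all genes, threshold 0.05). Each experiment was fitted on its 12 libraries and comparisons across experiments on all 24. The common biological coefficient of variation was 0.0455 for salt and 0.0539 for heat, and no 2 of the 24 libraries were identical (0 of 276 pairs). Library totals, RLE factors, other filters, DESeq2 1.42.0, limma 3.58.1 on log2(FPKM + 1) with a mean of at least 0.5 FPKM, other sets of libraries, a replicate block and leaving out each library were alternatives. Fits were tested on simulated data.

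The members and the lists of other genes were chosen with earlier results of these data known. Named for their change were up to 5 called members per direction with at least 5 CPM and no overlap of replicates, plus RACK1A and the paired genes of RPSa, RPS6 and RPS18 in every comparison. From the other lists, up to 4 called genes with the largest change were eligible, and other genes are said to be additions. Results of some members are not reported here. Upstream sequences are RefSeq's for TAIR10.1, cut by annotated gene start, and coding sequences were aligned with Biopython 1.88.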

Additional observations from a re-analysis of the deposited data

Results flagged for a closer look

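Responses that differed between the genotypes, or genotype differences that differed between the controls, by edgeR's test of the difference itself are collected here. All values are differences of log2 fold changes with TMM scaling, and an adjusted p under 0.05 put each of them here.

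For salt, the change in exa1-1 minus that in WT was called above 0 for 32 members and below 0 for 1. Among genes named for size it was 0.43 for AT5G39850 (RPS9). Of the genes named in every comparison it was 0.44 for RPSaB, 0.35 for RPS6A, 0.27 for RPS6B, 0.26 for PFL and 0.24 for RPS18C. RPSaA had the opposite sign, at -0.17, a call that was lost in 6 of the 12 fits that leave out 1 library.

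For heat, 24 members had a lower change in exa1-1. The difference was -0.37 for AT3G04840 (RPS3a), -0.34 for AT5G15200 (RPS9), -0.33 for AT5G07090 (RPS4) and -0.31 for AT5G35530 (RPS3). It was -0.16 for RPS6A, -0.20 for RPS6B, -0.23 for RPS18C and -0.17 for RACK1A. The call of RPS6A was lost in 6 of the 12 fits that leave out 1 library, with differences of -0.16 to -0.14 and adjusted p = 0.0553 to 0.117.

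The genotype difference at 23 °C minus that in MS was above 0 for 58 members. It was 0.83 for AT5G15200 (RPS9), 0.82 for AT3G11510 (RPS14), 0.79 for AT2G09990 (RPS16) and 0.78 for AT5G61170 (RPS19). It was 0.18 for RPSaA, 0.68 for RPSaB, 0.45 for RPS6A, 0.50 for RPS6B, 0.38 for PFL, 0.53 for RPS18C and 0.49 for RACK1A. The markers of green tissue moved with this difference, with 4 of 4 above 0. Root markers were called both ways, with PYK10 (0.21) and THAS1 (0.32) above 0 and LRX1 (-0.68) below. So were those of dividing cells, with PCNA2 (0.41) above 0 and MCM5 (-0.64) below. The part of these markers was not tested.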

How the results depend on the processing

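Scaling was the choice that mattered most, and values with library totals alone are followed here by those of limma on log2(FPKM + 1). For heat in exa1-1, 2 and 2 rose and 56 and 57 fell, with medians of -0.49 and -0.48. For heat in WT, 7 and 8 members rose and 43 and 43 fell, with medians of -0.32 and -0.32. These settings turned the sign in exa1-1 of AT2G31610 (-0.075, -0.075), AT2G36160 (-0.11, -0.11), RPSaA (-0.33, -0.33), RPSaB (-0.14, -0.13), RPS6A (-0.14, -0.14), RPS6B (-0.33, -0.33), PFL (-0.47, -0.46), RPS18C (-0.48, -0.48), RACK1A (-0.15, -0.15) and EXA1 (-0.78, -0.41). In WT they turned RPSaA (-0.23, -0.23), RPS6B (-0.084, -0.084), PFL (-0.28, -0.28) and RPS18C (-0.20, -0.20). For exa1-1 against WT, 1 and 1 members were higher in MS, 19 and 16 higher and 1 and 1 lower in NaCl, where the median became 0.049 and 0.048, and 4 and 3 were lower at 39 °C. At 23 °C against MS, 5 and 6 members were higher in exa1-1, where RPSaA (-0.30, -0.30) and RACK1A (-0.089, -0.089) turned, and 0 and 0 in WT, where AT2G41840 turned (-0.067, -0.067). With RLE factors and with DESeq2, 3 and 3 members were lower in NaCl and 0 and 0 at 39 °C. Of all genes, RLE factors and DESeq2 gave 3494 and 3126 lower in NaCl and 2576 and 2412 at 39 °C. Limma gave 4052 of all genes higher and 2699 lower in NaCl. Shares of all genes with library totals stand beside the members' counts in the Results. Apart from scaling, the cause was not tested.

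Leaving out 1 library gave 0 to 1 members higher with salt in exa1-1 and in exa1-1 against WT in MS, 5 to 8 higher and 1 to 4 lower in NaCl, where the median ran from -0.020 to 0.029, and 0 to 1 lower at 39 °C. It gave 0 to 1 below in the difference of salt responses and 16 to 39 in that of heat responses, the highest without replicate 3 of WT at 23 °C. Libraries with the same replicate number showed no sign of pairing, as 0 of 36 pairs correlated above 0.1 (-0.05 to 0.06). Correlations over all genes, many of them with few counts, cannot exclude pairing. With a replicate block the differences of response were called for 37 members above with salt and 27 below with heat, and no count moved by more than 1.5 times. Depth limits AT3G09680, which had at most 11 counts in a library at 39 °C. Values under the other settings were tallied together for named genes, EXA1, medians of the members and of all genes, and paralog shares. Of these, 1555 stayed the same, which for a gene means the same side of the threshold. A change of sign in a gene called in neither fit counts as the same. In 37 the call was lost, in 26 it was gained and in 40 a gene or median changed sign. All 40 arose with library totals or with limma on log2(FPKM + 1), and each such gene or median is counted once under each. The other 32, all medians or shares, moved by at least the spread of replicates.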
